A study of Mus musculus with 9 samples.

Results

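Krt8, Krt18, Ephb4, Igsf21, Fras1 and Mcc are 6 mouse genes that were almost without reads in wildtype splenic B cells and carried reads in all transgenic mice with leukemia. They are 6 of the 22174 genes in the deposited expression table. They were selected on those measured values, with Krt18 taken as the partner of Krt8, so the difference between transgenic and wildtype mice is described here and is not tested. RNA-sequencing was made of B cells isolated from the spleen with a pan B cell kit, with 1 library for each of 9 mice of strain C57/BL6NTac. The Eµ-MTCP1 group was 3 mice of founder line Z36 that carry the human MTCP1 transgene (hMTCP1), expressed from a VH promoter and IgH-Eµ enhancer active in immature and mature B cells. The Eµ-TCL1 group was 3 mice that carry the human TCL1 transgene (hTCL1), an established model of chronic lymphocytic leukemia (CLL). Transgenic mice were matched for age and had a marked disease load, while the 3 wildtype mice were littermates without the hMTCP1 transgene, and the age and sex of single mice were not given in the sources used here. The Eµ-MTCP1 mice come from 1 founder line, so the transgene and the site where it integrated cannot be told apart.

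The 6 genes are known mainly from tissues other than B cells. KRT8 and KRT18 are the type II and type I keratins that pair to form the intermediate filaments of simple epithelia such as liver and gut, and a single keratin without its partner is usually unstable. EPHB4 is a receptor tyrosine kinase best known from veins, where it binds ephrin-B2 on neighbouring cells. IGSF21 is an immunoglobulin superfamily protein that acts in adhesion at synapses. FRAS1 is a very large extracellular matrix protein of the embryonic basement membrane that works in a complex with FREM proteins, and MCC (mutated in colorectal cancers) is a cytoplasmic protein that has been linked to beta-catenin and to the cell cycle.

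Between 6464089 and 8053017 estimated reads were assigned per library on the reference that holds mostly coding sequences, and between 11438681 and 14070588 on the reference of full transcripts. Values are given as reads or as CPM (counts scaled to library size) after TMM scaling, and 3 reads, the most that a count of 0 allows, correspond to 0.376 to 0.466 CPM before scaling. Such floors cover counting error only. The transgenes matched the labels: in the authors' normalized log2 values, hTCL1A lay at 14.93 to 15.60 in Eµ-TCL1 mice and at most 6.96 elsewhere, and hMTCP1 at 11.12 to 12.30 in Eµ-MTCP1 mice and at most 6.19 elsewhere. All 10 B cell markers were above 3 reads in each group, with a summed level of 29537 to 38148 CPM for Eµ-MTCP1, 25635 to 36913 for Eµ-TCL1 and 32142 to 38980 for wildtype libraries. Wildtype mouse 2 was sequenced on another lane than the other 8 libraries. Here and below, fewer cells of a type and less RNA per cell cannot be told apart, since B cells were sequenced in bulk.

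The sequences before the start of 4 of the 6 genes are shown first, because the genes share their near silence in wildtype mice while the stretches shown differ widely in CG content. They were taken from RefSeq (build GRCm38.p6) and run 5′ to 3′ on the strand of the gene, up to the outermost start in RefSeq or GENCODE. Capitals mark each CG dinucleotide, the site of DNA methylation.
Krt8, chr15:102004483-102004592, minus strand: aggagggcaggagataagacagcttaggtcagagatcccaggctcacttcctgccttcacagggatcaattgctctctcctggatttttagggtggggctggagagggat
Krt18, chr15:102027966-102028179, plus strand: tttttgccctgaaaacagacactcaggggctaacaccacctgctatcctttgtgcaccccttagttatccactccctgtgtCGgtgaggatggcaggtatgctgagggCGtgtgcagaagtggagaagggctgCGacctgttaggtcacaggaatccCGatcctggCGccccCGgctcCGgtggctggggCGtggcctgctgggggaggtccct
Ephb4, chr5:137349859-137350108, plus strand: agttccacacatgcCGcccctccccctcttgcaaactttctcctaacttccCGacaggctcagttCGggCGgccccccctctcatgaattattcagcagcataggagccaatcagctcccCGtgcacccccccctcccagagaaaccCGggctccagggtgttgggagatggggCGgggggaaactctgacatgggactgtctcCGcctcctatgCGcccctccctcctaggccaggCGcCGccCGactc
Igsf21, chr4:140246812-140247061, minus strand: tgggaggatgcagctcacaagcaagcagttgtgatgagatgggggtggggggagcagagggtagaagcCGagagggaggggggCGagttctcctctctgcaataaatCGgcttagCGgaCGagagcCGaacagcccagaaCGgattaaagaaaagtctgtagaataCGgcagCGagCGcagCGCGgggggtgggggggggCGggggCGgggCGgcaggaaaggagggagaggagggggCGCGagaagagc

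The Krt8 stretch of 110 bases held 0 CG dinucleotides, against a median of 2 over the same window of 32851 promoters. The Krt18 stretch of 214 bases held 8, against a median of 5. Ephb4 held 12 and Igsf21 held 17 in 250 bases, against a median of 6, with a GC content of 64.0% and 63.6%. The stretches shown therefore ranged from CG free to CG rich. Those of Krt8 and Krt18 end at the GENCODE start, which lies upstream of the RefSeq start. The bases between these starts were not examined, nor was the matching part of the other promoters. A search of both strands for GGGCGG (the GC box) found 4 matches in Ephb4 and 3 in Igsf21, overlapping matches counted, a motif that 32.7% of all promoters held in that window. Krt8 and Krt18 held 0 matches, in windows where 11.6% and 27.6% of promoters held 1 or more. The TATA box TATAAA, the ETS core CCGGAA, the AP-1 element TGANTCA and the octamer ATTTGCAT were found in none of the 4 stretches, and over 250 bases between 1.60% (octamer) and 12.4% (TATA box) of all promoters held them. A match describes letters only, and methylation or binding was not measured.

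Krt8 (ENSMUSG00000049382, chromosome 15, 101996698 to 102004482, minus strand, GRCm38) reached the highest levels of the 6 genes. Its reads were 218, 10937 and 438 in Eµ-MTCP1 mice 1, 2 and 3, and 10299, 659 and 2887 in Eµ-TCL1 mice 1, 2 and 3. The wildtype mice had 7, 2 and 3 reads. The lowest transgenic mouse stood 34.0-fold above the highest wildtype mouse in CPM, so the groups did not overlap, and a pair of mice, 1 of each model, stood far above the other 4. On the CPM scale the Eµ-MTCP1 mean was 555 ± 868 (SD, n = 3), the Eµ-TCL1 mean 642 ± 713 and the wildtype mean 0.550 ± 0.448. The ratio of means over wildtype was 1009 in Eµ-MTCP1 and 1168 in Eµ-TCL1 mice. Without Eµ-MTCP1 mouse 2 the first ratio was 98.3, and without Eµ-TCL1 mouse 1 the second was 438. Without wildtype mouse 1, which held 7 of the 12 wildtype reads, they were 1881 and 2176. In coding-length TPM, Krt8 ranked 206 among 12649 genes with a read in Eµ-MTCP1 mouse 2 and 233 among 12445 in Eµ-TCL1 mouse 1, against 4457 among 12258 in Eµ-MTCP1 mouse 1. Krt8 was thus among the most abundant transcripts of some leukemias and of middling abundance in others.

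Krt18 (ENSMUSG00000023043, chromosome 15, 102028180 to 102032027, plus strand), its type I partner, lies beside Krt8 on the opposite strand, and no other tested gene starts between them. Its reads were 621, 1237 and 513 in Eµ-MTCP1 mice 1 to 3 and 1633, 115 and 407 in Eµ-TCL1 mice 1 to 3, against 6, 8 and 3 in wildtype mice. The order of the mice resembled that of Krt8 at the top, with the same mouse of each model highest. The Eµ-MTCP1 mean was 121 ± 48.5 CPM, the Eµ-TCL1 mean 99.9 ± 114 and the wildtype mean 0.717 ± 0.299, which gives ratios of 169 and 139. Without Eµ-TCL1 mouse 1 the second ratio was 49.2.

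Type I and type II keratin proteins pair in equal amounts in filaments. In these libraries the transcripts of Krt8 and Krt18 were not in a fixed ratio. Per coding length (TPM), Krt8 was 0.320, 7.94 and 0.773 times Krt18 in Eµ-MTCP1 mice 1 to 3. In Eµ-TCL1 mice 1 to 3 it was 5.70, 5.20 and 6.64 times Krt18. The Eµ-TCL1 mice were alike, whereas in the Eµ-MTCP1 mice the pair stood on either side of equality. On the full-transcript reference the ratios were 0.312, 7.36 and 0.713 in Eµ-MTCP1 and 5.51, 4.78 and 5.94 in Eµ-TCL1 mice. Wildtype ratios rest on 2 to 8 reads and are not read here.

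**Figure D1:**
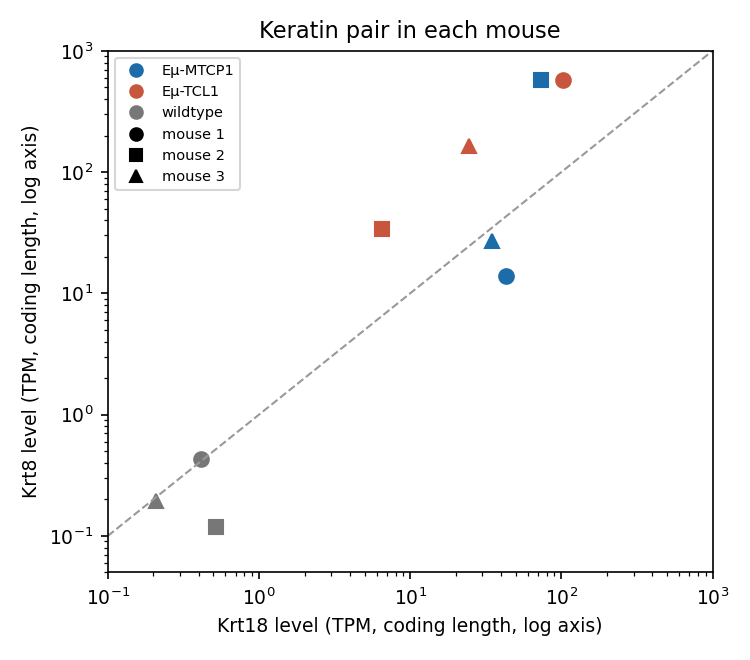
Krt8 level against Krt18 level, both in TPM per coding length on log axes, with 1 point for each of 9 mice, colour for the group and symbol for the mouse number. The dashed line marks equal levels, and the 3 Eµ-TCL1 mice and Eµ-MTCP1 mouse 2 lie above it with ratios of 5.20 to 7.94, while Eµ-MTCP1 mice 1 and 3 lie below it at 0.320 and 0.773.

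Most other keratins had few or no reads. Of 49 keratin genes with a number in their symbol, 38 had no read in any library and 8 passed 3 reads in at least 1 library, Krt8 and Krt18 included. Krt7 and Krt19, which accompany Krt8 and Krt18 in ductal epithelium, had at most 3 reads and 1 read in any mouse. Krt222, a keratin-like gene of unclear filament role, was higher in both models and is described with the related genes below.

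Ephb4 (ENSMUSG00000029710, chromosome 5, 137350109 to 137378669, plus strand) was read 10, 205 and 164 times in Eµ-MTCP1 mice 1 to 3 and 275, 562 and 118 times in Eµ-TCL1 mice 1 to 3. The wildtype mice held 1, 0 and 0 reads. Eµ-MTCP1 mouse 1, at 1.65 CPM, was close to silent while the other 5 transgenic mice ranged from 16.4 to 69.1 CPM. The mean was 19.3 ± 15.3 CPM for Eµ-MTCP1 and 41.4 ± 26.5 for Eµ-TCL1. With a single wildtype read, the ratio of reads per total, summed over the 3 mice of a group, was 400 in Eµ-MTCP1 (95% exact counting interval 71.3 to 15826) and 921 in Eµ-TCL1 mice (165 to 36427). The intervals cover counting error only, not the spread between mice. As a ratio of mean CPM it was 820 in Eµ-TCL1 mice, 544 without Eµ-TCL1 mouse 2 and 546 without wildtype mouse 2 or 3, and without wildtype mouse 1, which held the read, the means were at least 55.1-fold and 118-fold above the floor in Eµ-MTCP1 and Eµ-TCL1 mice. On the opposite strand Ephb4 overlaps Zan, which had 507, 699 and 1041 reads in the Eµ-MTCP1 mice, 586, 593 and 450 in the Eµ-TCL1 mice and 319, 461 and 331 in the wildtype mice. The counting is not stated to use strand, so reads where the genes overlap cannot be assigned to one of them with certainty.

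The leading transcript form of Ephb4 differed between mice. On the full-transcript reference the form Ephb4-201 took 100%, 97.2% and 67.6% of its estimated reads in Eµ-MTCP1 mice 1 to 3, and 55.8%, 26.7% and 64.8% in Eµ-TCL1 mice 1 to 3. Ephb4-205 took 0%, 0% and 32.4% in the first group and 34.0%, 57.8% and 31.3% in the second. All 3 Eµ-TCL1 mice thus held the 205 form, against 1 of 3 Eµ-MTCP1 mice. The 13 reads of Eµ-MTCP1 mouse 1 are too few to show a minor form. On the coding reference, which does not hold the 205 form, Ephb4-201 took 86.9% to 100%, so the split depends on the reference. For Mcc the protein-coding form Mcc-201 took 75.1% to 93.9% of full-transcript reads in transgenic mice and the retained-intron form Mcc-204 at least 6.06%. Fras1-201 took 94.1% to 97.0% of the Fras1 reads, while for Krt8, Krt18 and Igsf21 both references hold only 1 form.

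**Figure D2:**
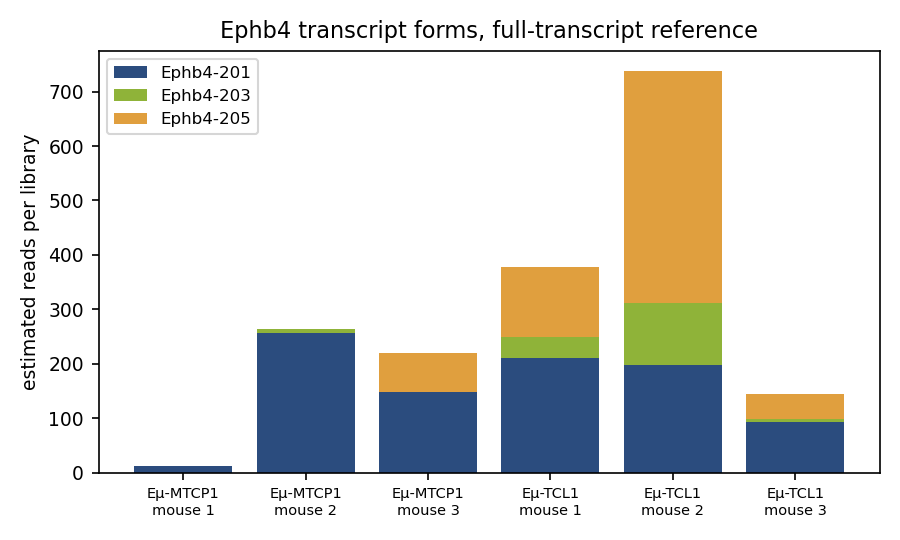
Estimated reads of Ephb4 per library on the full-transcript reference, stacked by transcript form, for the 6 transgenic mice (1 bar per mouse). Eµ-TCL1 mouse 2 holds the most reads and 57.8% of them from Ephb4-205, and Eµ-MTCP1 mouse 2 holds 97.2% from Ephb4-201.

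Igsf21 (ENSMUSG00000040972, chromosome 4, 140026846 to 140246784, minus strand) was the steadiest of the 6 genes among mice of 1 model. Its reads were 115, 235 and 171 in Eµ-MTCP1 mice 1 to 3 and 45, 25 and 31 in Eµ-TCL1 mice 1 to 3. All 3 wildtype mice had 0 reads, in every table examined. Each Eµ-MTCP1 mouse was above each Eµ-TCL1 mouse, with means of 26.9 ± 7.29 and 4.56 ± 1.63 CPM. Against the floor of 3 reads in each wildtype library, the Eµ-MTCP1 mean was at least 69.9-fold higher and that of Eµ-TCL1 at least 11.9-fold higher.

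Fras1 (ENSMUSG00000034687, chromosome 5, 96373955 to 96784728, plus strand) spans 411 kb and has a coding length of 12033 bases. It was read 1139, 923 and 1165 times in Eµ-MTCP1 mice 1 to 3 and 135, 1775 and 1978 times in Eµ-TCL1 mice 1 to 3. The Eµ-MTCP1 mice were close to each other, and Eµ-TCL1 mouse 1 stood apart from the other 2 at 18.9 CPM against 218 and 274 CPM. The wildtype mice 1, 2 and 3 had 14, 0 and 0 reads on the coding reference and 17, 2 and 3 on full transcripts, so most wildtype reads came from mouse 1. The mean was 170 ± 33.9 CPM for Eµ-MTCP1, 170 ± 134 for Eµ-TCL1 and 0.706 ± 1.22 for wildtype, a ratio of 241 for both models. Without wildtype mouse 1 the mean of either model was at least 488-fold above the floor.

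Mcc (ENSMUSG00000071856, chromosome 18, 44425060 to 44812182, minus strand) was read 96, 282 and 385 times in Eµ-MTCP1 mice 1 to 3 and 123, 7 and 189 times in Eµ-TCL1 mice 1 to 3. No coding read was found in any wildtype mouse. Eµ-TCL1 mouse 2, at 0.861 CPM, was the lowest of the transgenic mice. The mean was 39.8 ± 23.7 CPM for Eµ-MTCP1 and 14.8 ± 12.8 for Eµ-TCL1, at least 103-fold and 38.4-fold above the wildtype floor. Without Eµ-TCL1 mouse 3 the second limit was 23.6. On full transcripts wildtype mice 1, 2 and 3 had 2, 6 and 3 Mcc reads, so the gene was not wholly silent there, while Eµ-TCL1 mouse 2 had 33. The antisense gene A930012L18Rik, which overlaps Mcc, had 0 reads in wildtype and 1 to 34 in transgenic mice, and reads of the 2 cannot be told apart without strand.

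**Figure D3:**
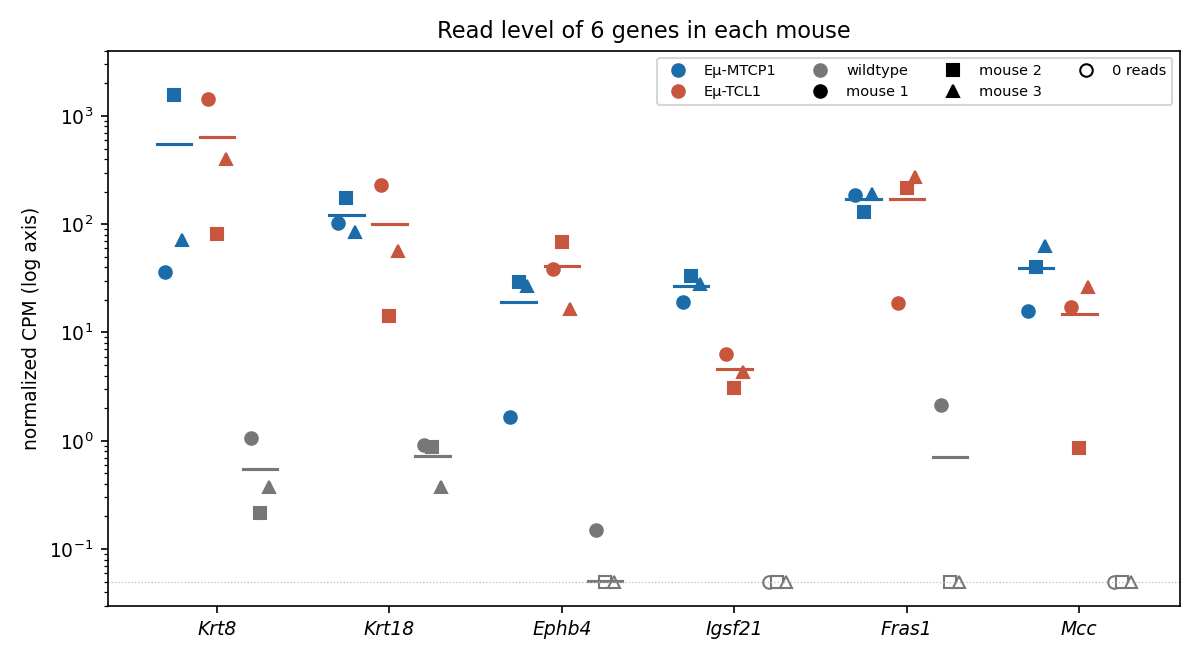
Normalized CPM of the 6 genes in each of 9 mice on a log axis, with colour for the group, symbol for the mouse number and a bar for the group mean. Open symbols on the dotted line are libraries with 0 reads, and the transgenic points lie above the wildtype points for each gene, with Eµ-MTCP1 mouse 1 lowest for Ephb4 and Eµ-TCL1 mouse 2 lowest for Mcc.

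Set side by side per coding length, Krt8 and Krt18 led in both models, with mean TPM of 206 and 50.3 in Eµ-MTCP1 and 259 and 44.2 in Eµ-TCL1 mice. The next gene was Igsf21 at 11.9 TPM in Eµ-MTCP1 mice and Ephb4 at 7.46 TPM in Eµ-TCL1 mice. Mcc, Fras1 and Ephb4 followed in Eµ-MTCP1 mice at 5.90, 4.92 and 3.13 TPM, with SDs of 3.53, 1.02 and 2.48 that exceed or match the gaps between them. In Eµ-TCL1 mice Fras1, Mcc and Igsf21 lay at 5.14, 2.28 and 2.21 TPM, where Mcc and Igsf21 did not differ beyond their spread. There the gap between Ephb4 and Fras1 lay within their SDs of 4.97 and 4.01. The order below the keratins depended on the reference. On full transcripts Fras1 (11.0 TPM) was close to Igsf21 (11.2) and above Mcc (8.93) in Eµ-MTCP1 mice. In Eµ-TCL1 mice it stood above Ephb4, at 11.1 against 8.21 TPM.

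On the coding reference no gene of the 6 met a strict version of the pattern. At most 3 reads in each wildtype mouse together with at least 30 in each transgenic mouse held for 10 of 22137 genes (0.0452%), led by Gng13, a G protein gamma subunit, with 129 to 494 reads in transgenic mice and at most 2 in wildtype mice. Nearest to the limit of 30 among those 10 was Olfml2a, with 31 reads in the lowest transgenic mouse. Of the 6 genes, Igsf21 came nearest with 25, followed by Ephb4 with 10 and Mcc with 7, while Krt8, Krt18 and Fras1 missed by their wildtype reads of 7, 8 and 14. These misses depend on the table. Igsf21 met both limits on full transcripts, on deposited gene counts and on the authors' CLEAR coverage filter, with 35, 33 and 33 reads at the lowest. After that filter, which left 0 wildtype reads for Fras1 and Mcc, these met them too, at 204 and 35. With at least 10 transgenic reads the pattern held for 26 genes (0.117%), Ephb4 and Igsf21 included, and with at least 100 for 1 gene (0.00452%).

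The 2 transgenic models were then compared, which the choice of genes did not use. The test was the quasi-likelihood test of edgeR, with Benjamini-Hochberg adjustment over 11161 genes, of which 1 gene (0.00896%) passed. All 6 genes passed the expression filter, which they did through the transgenic mice. None of the 6 passed an adjusted p of 0.05, and 1 of 6 had an unadjusted p under 0.05, against 6.39% of all genes. This was Igsf21, lower in the Eµ-TCL1 model, with a log2 fold change over Eµ-MTCP1 of -2.56 (95% interval -3.48 to -1.63), with edgeR adjusted p = 0.227 over all genes. The DESeq2 Wald test gave Igsf21 a log2 fold change of -2.57 with adjusted p = 1.81e-05, the 1 of 6 genes that it called, against 68 of 11108 genes in all (0.612%), so the call rests on the tool. Over all alternatives the log2 fold change of Igsf21 lay between -2.86 and -2.34, and the 3 Eµ-MTCP1 mice exceeded the 3 Eµ-TCL1 mice.

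For the other 5 genes the interval of the difference spanned 0. Ephb4 had a log2 fold change of 1.10 (95% interval -0.65 to 2.85) and Mcc -1.43 (-3.52 to 0.66), Eµ-TCL1 over Eµ-MTCP1. Krt8 gave 0.21 (-2.53 to 2.95), Krt18 -0.28 (-1.89 to 1.33) and Fras1 0.00 (-1.83 to 1.84). These intervals are wide, and none shows that the models act alike. The Krt8 estimate was set by single mice, at 3.57 without Eµ-MTCP1 mouse 2 and -1.21 without Eµ-TCL1 mouse 1. For Krt18 the value was -1.78 without Eµ-TCL1 mouse 1.

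**Figure D4:**
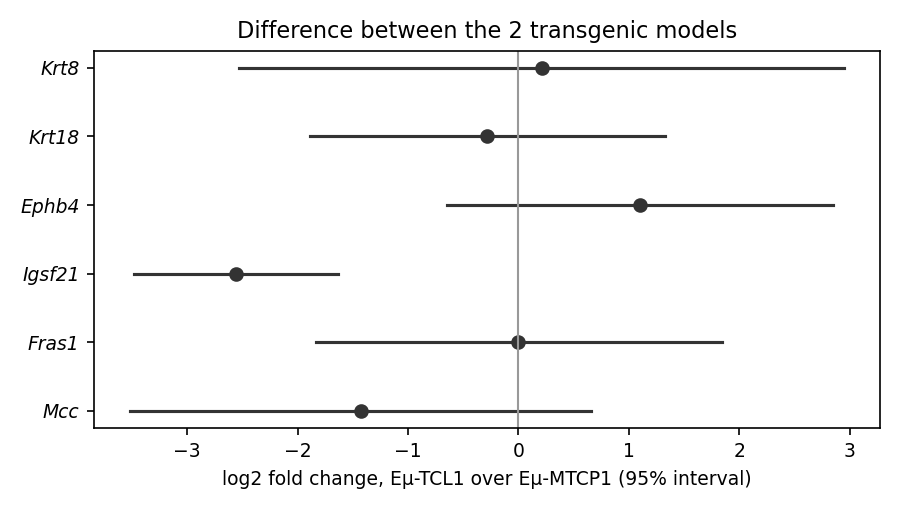
Log2 fold change of each gene in Eµ-TCL1 over Eµ-MTCP1 mice (n = 3 each) with its 95% interval from the edgeR fit. Igsf21 lies at -2.56 with an interval below 0, and the intervals of the other 5 genes include 0.

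Within a model, 5 of the 6 genes had a larger spread than at least 94.7% of genes, and for Fras1 this rested on 1 mouse. The SD of log2 CPM among mice of 1 model, pooled over both, was 2.52 for Krt8, larger than that of 99.5% of the 11161 genes tested, whose median was 0.38 and 90th percentile 1.16. It was 1.89 for Mcc, 1.74 for Ephb4, 1.52 for Fras1 and 1.46 for Krt18, each larger than that of at least 94.7% of genes. Igsf21, with 0.45, stood above 59.8% of genes. Without Eµ-TCL1 mouse 1 the SD of Fras1 was 0.27, below the median of all genes. Without the mouse that stands apart it was 0.74 for Ephb4 (without Eµ-MTCP1 mouse 1), 0.77 for Mcc (without Eµ-TCL1 mouse 2) and 1.55 for Krt8 (without Eµ-MTCP1 mouse 2).

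The 6 genes did not follow 1 shared order of mice. Eµ-TCL1 mouse 1 was highest of its model for Krt8, Krt18 and Igsf21 and lowest for Fras1, and Eµ-TCL1 mouse 2 was highest for Ephb4 and lowest for Krt8, Krt18, Igsf21 and Mcc. The likeness of other genes was taken as the distance over the 9 mice, the root mean square difference of centred log2 CPM, which includes the step between wildtype and transgenic mice that chose the 6 genes. As a description over the same 9 libraries, the gene closest to Krt8 was Gnb3 (distance 1.36), a G protein beta subunit, and the closest to Krt18 was Gng13 (0.62). Sostdc1, a secreted BMP antagonist, was closest to Ephb4 (0.97), Cyp11a1, the steroid side-chain cleavage enzyme, to Igsf21 (0.84), Ahnak2 to Fras1 (1.49) and the transcription factor gene Prox1 to Mcc (1.04). With a prior count of 0.5 the closest gene changed for each of these but Ephb4 and Igsf21.

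A further pair of values was set beside Krt8 after its levels were seen. Of the heavy chain variable segment reads, Ighv12-3 took 0.260%, 95.8% and 0.260% in Eµ-MTCP1 mice 1, 2 and 3, and 98.1%, 9.22% and 0.0288% in Eµ-TCL1 mice 1, 2 and 3. The mice with over 90% were the 2 with the most Krt8. Both also drew most kappa variable reads from Igkv4-91, at 97.3% and 93.3%, as did Eµ-MTCP1 mouse 1 at 74.1%, whose Krt8 was the lowest of the transgenic mice. The part of the antibody gene in the Krt8 level was not tested.

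Markers of cell types that normally express these genes were looked at in the same libraries. Of 17 epithelial markers, which leave out the 6 genes, 6 had no read in any mouse, among them Krt5, Krt14, Cldn3, Esrp1 and Grhl2. The summed level was 12.4 to 17.8 CPM for Eµ-MTCP1, 9.35 to 60.2 for Eµ-TCL1 and 23.7 to 27.5 for wildtype, so it was not higher in the transgenic groups as a whole. The highest sum belonged to Eµ-TCL1 mouse 1, which also had the most Krt18 and held 273 reads of Epcam, 57 of Cldn7 and 30 of Cdh1. Their part in the keratin levels of that mouse was not tested. Of 7 mesothelial markers Msln, Upk1b and Wt1 were at 0, and the sum of 4.77 to 15.7 CPM in transgenic and 0.870 to 3.48 in wildtype mice was almost all Gpm6a. Of 9 endothelial markers, relevant to Ephb4, Kdr, Tek and Flt4 were at 0, and the sums of 112 to 159, 116 to 150 and 142 to 179 CPM overlapped. Nearly all of these sums was Pecam1, at 662 to 1471 reads per library. Of 8 fibroblast markers, relevant to Fras1, 5 were at 0, and the sum was at most 7.50 CPM in any mouse. Neutrophil markers stood high in 1 Eµ-MTCP1 mouse (mouse 1, 2764 CPM) and 1 wildtype mouse (mouse 2, 4983 CPM) against 29.9 to 438 CPM elsewhere, and Eµ-MTCP1 mouse 1 is the mouse with the least Krt8, Ephb4, Igsf21 and Mcc of its model. The part of neutrophil RNA in those values was not tested. T cell markers summed to 473 to 956 CPM for Eµ-MTCP1, 449 to 901 for Eµ-TCL1 and 403 to 451 for wildtype. Most of the T cell sum was Cd2, at 2281 to 6301 reads per library. Cd3e and Cd8b1 were highest in Eµ-TCL1 mouse 3, at 51 and 75 reads. Plasma cell markers summed to 349 to 2967, 128 to 2001 and 814 to 1366, and macrophage markers to 473 to 1006, 371 to 1405 and 735 to 1309. Erythroid markers summed to 26.8 to 325, 24.3 to 72.0 and 37.6 to 175 CPM, and megakaryocyte markers to at most 2.46 CPM in any mouse. Although most sums overlapped, 4 single markers of other cell types rose in both models by the edgeR test. Prdm1, a transcription factor of plasma cells, lay at 28.6 to 123 CPM in transgenic and 12.2 to 24.5 in wildtype mice (log2 fold changes 2.11 and 1.83, adjusted p = 0.0227 and 0.0403). Cd68, a lysosomal protein used as a macrophage marker, lay at 154 to 324 against 36.1 to 68.4 CPM (2.06 and 1.91, adjusted p = 0.00317 and 0.00466). Ehf, an epithelial ETS transcription factor, lay at 2.32 to 15.7 against 0 to 0.745 CPM (4.05 and 4.48), and Gpm6a rose by 2.90 and 2.23 on the log2 scale. The B cell factor Ebf1 fell in Eµ-TCL1 mice (-0.87, adjusted p = 0.0140). The part of these cell types in the levels of the 6 genes was not tested.

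The genes that work with the 6 were compared with wildtype. These lists were drawn up with earlier results of these data known, so their counts are no independent support. Of 99 related genes 41 could be tested, and 27 had no read in any mouse. In Eµ-MTCP1 mice 9 rose and 1 fell, against 9.49% of all genes that passed in either direction, 5.48% that rose and 4.01% that fell. In Eµ-TCL1 mice 9 rose and 1 fell, where 9.16% of all genes passed, 5.03% rose and 4.13% fell. The share of related genes that passed was 24.4% in each comparison. Their median log2 fold change was 0.49 and 0.31, against -0.02 and -0.01 over all genes tested. Both comparisons use the same 3 wildtype mice, and without wildtype mouse 3 the count that passed was 7 and 5. Itgb1, Nid1 and Vsig10 passed in both models under all alternatives that were run.

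Among keratins, other intermediate filaments and the proteins that link them, 4 of 15 tested genes rose and 1 fell in Eµ-MTCP1 mice, and 5 rose and 1 fell in Eµ-TCL1 mice. Vim, the vimentin of the type III filaments usual in leukocytes, rose from 385 ± 96.5 CPM in wildtype to 1024 ± 477 in Eµ-MTCP1 and 1494 ± 154 in Eµ-TCL1 mice (log2 fold changes 1.41 and 1.96, edgeR adjusted p = 0.0263 and 0.00584). Plec and Eppk1, the linkers plectin and epiplakin, which bind keratin filaments, rose by 1.34 and 3.09 on the log2 scale in Eµ-MTCP1 and by 1.11 and 2.94 in Eµ-TCL1 mice. Krt222 rose by 2.85 and 2.20, from 3.99 CPM in wildtype to 28.7 and 18.3 CPM. The Vim call of Eµ-MTCP1 mice was lost without Eµ-MTCP1 mouse 2 or 3 or wildtype mouse 2 or 3, and the Plec call of Eµ-TCL1 mice without Eµ-TCL1 mouse 1 or wildtype mouse 2 or 3. In Eµ-TCL1 mice the Eppk1 call was lost without wildtype mouse 2 or 3, and the Krt222 call without Eµ-TCL1 mouse 1 or 3 or any 1 wildtype mouse. Lmna, the nuclear lamin A/C gene, did not pass in Eµ-MTCP1 mice (log2 fold change 2.70, edgeR adjusted p = 0.0749, and 1.17 without Eµ-MTCP1 mouse 2) and passed in Eµ-TCL1 mice (3.52, edgeR adjusted p = 0.0316), and the 2 models were not shown to differ (adjusted p = 0.891). The Lmna call of Eµ-TCL1 mice was lost without Eµ-TCL1 mouse 1 or 3 or any 1 wildtype mouse and on the counts of the authors' CLEAR coverage filter (edgeR adjusted p = 0.0505), and in Eµ-MTCP1 mice Lmna passed with DESeq2, with no filter and without Eµ-MTCP1 mouse 1. Ppl, the linker periplakin of stratified epithelia, fell from 15.4 ± 2.15 CPM to 0.322 ± 0.177 and 0.543 ± 0.514 (log2 fold changes -5.53 and -4.80). On CLEAR counts the Ppl call of Eµ-TCL1 mice was lost (-4.07, edgeR adjusted p = 0.0627). The desmosomal Pkp3 and the lamin gene Lmnb1 did not pass in either model.

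The partners of FRAS1 were not detected at this depth. Frem1, Frem2 and Frem3, which encode the other proteins of its complex, and Grip1, which encodes an adaptor needed to bring it to the membrane, had 0 reads in all 9 libraries. Of the complex and the wider basement membrane 3 of 6 tested genes rose in Eµ-MTCP1 and 2 of 6 in Eµ-TCL1 mice. Itgb1, the integrin beta 1 subunit, rose from 49.1 ± 11.4 CPM to 295 ± 66.4 and 235 ± 51.5 CPM (log2 fold changes 2.59 and 2.26). Nid1, the basement membrane protein nidogen-1, rose from 18.5 ± 6.40 CPM to 242 ± 115 and 272 ± 121 CPM (3.71 and 3.88). Itga8, the integrin alpha 8 subunit that pairs with Itgb1 and binds nephronectin, passed in Eµ-MTCP1 mice (5.69, edgeR adjusted p = 0.0107) but not in Eµ-TCL1 mice (3.19, adjusted p = 0.102), and the models were not shown to differ (adjusted p = 0.692). The Itga8 call of Eµ-MTCP1 mice was lost without wildtype mouse 3. For Eµ-TCL1 it passed with DESeq2, on the standard reference, on gene counts and without Eµ-TCL1 mouse 1. Lamc1 and Itgav did not pass.

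The ephrin system around Ephb4 was near silent. Of 21 Eph and ephrin genes 4 could be tested, 9 had no read in any mouse, and 0 of 4 passed in either comparison by the edgeR test or by DESeq2. The count at an unadjusted p under 0.05 was 0 in Eµ-MTCP1 and 1 in Eµ-TCL1 mice (Epha2), where 25% and 25.1% of all genes lay under it. Efnb2, the gene of the ephrin-B2 ligand of EPHB4, had at most 3 reads in any mouse. Efnb1 and Epha1, with the highest mean CPM of them, lay at 1.57 and 1.47 CPM for Eµ-MTCP1, 2.77 and 1.73 CPM for Eµ-TCL1 and 2.16 and 1.41 CPM for wildtype. Of 14 MCC partners and beta-catenin complex genes 11 were tested and 0 passed by edgeR with TMM scaling (Apc passed in both models with library size alone), with 4 and 3 at an unadjusted p under 0.05 beside those 25% and 25.1% of all genes. DESeq2 called 1 in each comparison (Scrib in Eµ-MTCP1, Apc in Eµ-TCL1 mice), where it called 14.8% and 15.2% of all genes. The highest mean CPM was that of Ezr and Msn, the membrane linkers ezrin and moesin, with log2 fold changes of 0.24 and -0.17 in Eµ-MTCP1 and 0.40 and -0.17 in Eµ-TCL1 mice. Of 21 immunoglobulin superfamily and synaptic adhesion genes 5 were tested and 2 rose in both models. Igsf8, a tetraspanin partner, rose by 1.48 and 1.69, and Vsig10 rose by 4.86 and 4.85, from 0.295 ± 0.408 CPM to 9.78 ± 4.54 and 9.74 ± 4.78 CPM. Without wildtype mouse 2 the Vsig10 values were 6.84 and 6.83. The Igsf8 call was lost without wildtype mouse 3 in both models, and without wildtype mouse 1 in Eµ-MTCP1 mice. Igsf9 and Igsf9b had log2 fold changes of 0.90 and 6.08 in Eµ-MTCP1 and 2.14 and 6.51 in Eµ-TCL1 mice and did not pass. The Igsf9b value was 1.41 without Eµ-MTCP1 mouse 2 in the first model and 3.33 without Eµ-TCL1 mouse 1 in the second, and without wildtype mouse 1 it was 10.12 and 10.55. Igsf9 passed in Eµ-TCL1 mice under 5 of 17 alternatives, among them DESeq2 (adjusted p = 0.00887), no filter and only the groups compared.

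**Figure D5:**
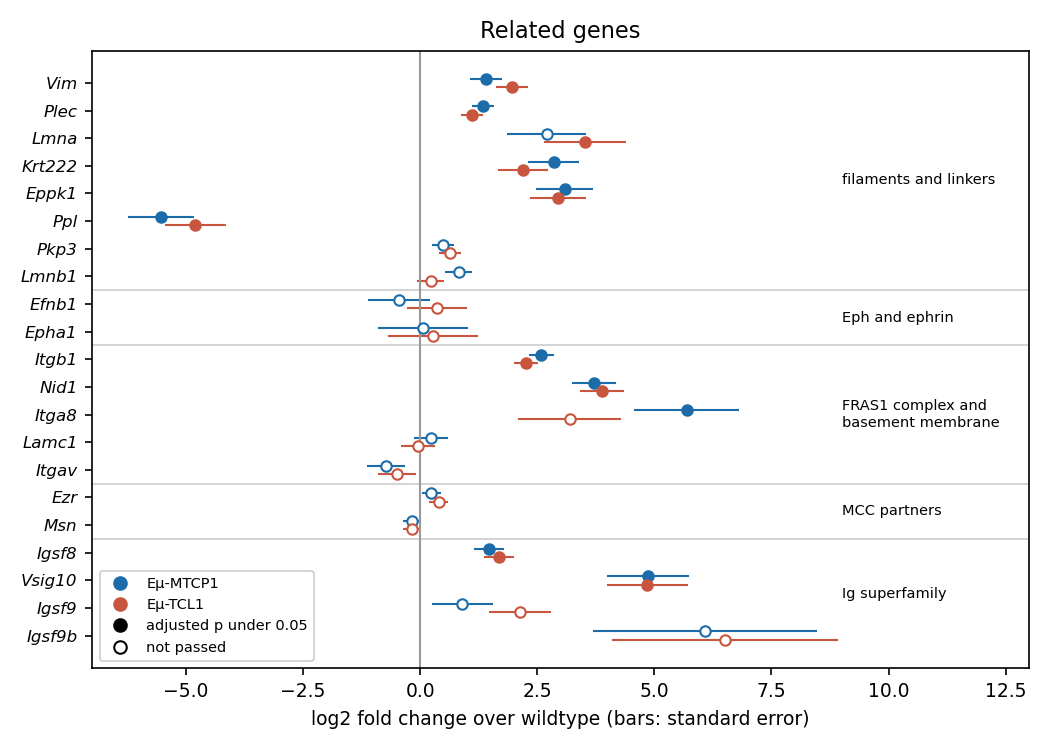
Log2 fold change over wildtype (bars are standard errors) of the related genes named in the text, in 5 groups, for Eµ-MTCP1 and Eµ-TCL1 mice, with filled points for an adjusted p under 0.05. Itgb1, Nid1, Vim, Plec, Krt222, Eppk1, Igsf8 and Vsig10 are filled to the right of 0 in both models and Ppl to the left.

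The neighbours of the 6 genes on the chromosome were taken next. Of 30 tested genes, the 3 nearest on each side of each gene, 2 rose and 2 fell in Eµ-MTCP1 mice, and 1 rose and 1 fell in Eµ-TCL1 mice, shares of 13.3% and 6.67% beside the 9.49% and 9.16% of all genes. The median log2 fold change of the neighbours was 0.07 in Eµ-MTCP1 and 0.00 in Eµ-TCL1 mice. Eif4b, beside Krt8 and Krt18, rose by 0.85 and 0.68 on the log2 scale (the calls were lost in 4 and 14 of 17 alternatives), and Gnb2, beside Ephb4, rose by 0.84 in Eµ-MTCP1 mice (lost in 7 of 17). In Eµ-TCL1 mice Gnb2 was at 0.74 (edgeR adjusted p = 0.0510) and passed in 4 of 17 alternatives. Bmp2k, beside Fras1, fell from 113 ± 55.2 CPM to 22.1 ± 3.23 and 21.3 ± 7.30 CPM (log2 fold changes -2.35 and -2.41). Trim36, beside Mcc, fell by 3.55 on the log2 scale in Eµ-MTCP1 mice, a call lost without Eµ-MTCP1 mouse 2 or any 1 wildtype mouse. In Eµ-TCL1 mice it was -1.95 (edgeR adjusted p = 0.152) and passed in 4 of 17 alternatives. The 2 neighbours of highest mean CPM that did not pass were Nr4a1, an orphan nuclear receptor gene beside the keratin pair (-0.91 and -1.30), and Ubr4, beside Igsf21 (0.10 and 0.19, and -0.12 in Eµ-MTCP1 mice with library size alone). Without Eµ-MTCP1 mouse 2 Nr4a1 passed in both models (-2.09 and -1.33, edgeR adjusted p = 8.51e-04 and 0.00242). In Eµ-TCL1 mice Nr4a1 also passed with DESeq2 (adjusted p = 0.0492) and with only the groups compared (edgeR adjusted p = 0.00348). The neighbour count in Eµ-MTCP1 mice was 1 without wildtype mouse 2 or 3 and 2 without Eµ-MTCP1 mouse 3, and that in Eµ-TCL1 mice was 1 without wildtype mouse 2 or 3, Eµ-TCL1 mouse 1 or 3 or Eµ-MTCP1 mouse 3.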

How the data were processed

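B cells from 9 mice were sequenced, and the authors quantified the reads with Salmon 1.0.0 per the labels (HISAT2 2.0.6, Subread and featureCounts are also named, with build GRCm38.p4). The libraries are named as made with SMARTer v4 and Nextera XT and with a stranded TruSeq kit, and preamplification can widen the spread of low genes. The deposited estimated counts and TPM come from Salmon on 2 references, standard transcripts and mostly coding sequences with human genes. The deposited count tables hold whole counts per gene and the counts that passed the authors' CLEAR coverage filter. The authors' log2 values are normalized expression, used for the transgenes only. Their fold changes and p-values were not used.

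Estimated counts on the coding reference were summed per gene with GENCODE M21, rounded, filtered with filterByExpr (11161 genes kept) and scaled by TMM. All 9 libraries entered 1 fit of the edgeR 4.0.16 quasi-likelihood test (R 4.3.3, two-sided, Benjamini-Hochberg, threshold 0.05). The 6 genes and the lists were chosen with earlier results of these data known. All related and neighbouring genes that passed, up to 6 per list by mean CPM, and the 2 highest that did not are named, with the nearest 3 patterns per gene computed and the first named. TPM divides by length, so levels of the 6 genes are set against each other in TPM, while genes to name were picked by mean CPM. Mice are separate animals. 0 columns were left unmapped. Alternatives were other scalings, DESeq2 1.42.0, no filter, other tables, fewer groups and leaving out each library.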

Additional observations from a re-analysis of the deposited data

How the results depend on the processing

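Of 17 alternatives, 16 gave 0 of the 6 genes different between the models, and the DESeq2 Wald test gave 1 (Igsf21). Related genes that passed numbered 7 to 11 for Eµ-MTCP1 and 5 to 11 for Eµ-TCL1 when 1 library was left out, the fewest without wildtype mouse 3, and 13 and 14 with DESeq2. Neighbours that passed numbered 1 to 4 and 1 to 3. In Eµ-TCL1 mice the neighbour count was 1 with library size alone, 7 with DESeq2, 4 on the standard reference and 5 with only the groups compared. Leaving out 1 library moved the model difference from -1.21 to 3.57 for Krt8 and from -1.78 to 0.23 for Krt18. It moved Efnb1 from -0.27 to 0.77 and Epha1 from -0.96 to 0.64 in Eµ-TCL1, and Epha1 from -1.52 to 0.47, Igsf9 from -0.01 to 1.34 and Ubr4 from -0.04 to 0.25 in Eµ-MTCP1 mice. Lamc1 in Eµ-TCL1 mice moved from -0.33 to 0.21. Epha1 in Eµ-MTCP1 mice was -0.19 with library size alone and -0.28 on CLEAR counts. In Eµ-TCL1 mice Epha1 was -0.25, -0.72 and -0.75 and Lamc1 0.13, 0.10 and 0.07 on the standard reference, gene counts and CLEAR counts. Ubr4 was -0.12 with library size alone. The causes were not tested. No paired analysis was made, since the mice are separate animals and the labels name no pairs. Genes with 0 to 14 wildtype reads allow only coarse folds at this depth.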
